A study of Mus musculus with 12 samples.

Results

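The cytochrome P450 genes are a large family of haem enzymes that add oxygen to fatty acids, sterols, vitamins, hormones and foreign compounds. The genes described here are the 97 rows of the count table whose gene name is Cyp followed by a number, of 54532 genes in all. The 30 P450 pseudogenes and the 4 steroid-producing P450 genes of the adrenal gland (Cyp11a1, Cyp11b1, Cyp11b2 and Cyp21a1) were left out. The rule used gene names and no expression value, but it was set with earlier results of these data known. Of the 97, 96 code for protein and 1, Cyp4x1os, is an antisense transcript. Reads were counted for 89 of them, and 71 passed the cutoff on low expression and were tested among 24642 genes.

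RNA-seq counts were available for whole kidneys of 12 C57BL/6 mice, flash frozen at 18 days of age, in 4 groups of 3. All 12 mice carried the hypomorphic Pkd1 RC allele over a floxed Pkd1 allele. The noncystic mice had no Cre (Pkd1 RC/+ in function), whereas the cystic mice also carried the Ksp-Cre transgene, which deletes the floxed allele in tubule epithelium and not in the other cells of the kidney (Pkd1 RC/-). In each disease state the mice were either Pkd2 +/+ or Pkd2 Δ17/Δ17, a germline deletion that removes the miR-17 binding motif from the end of the Pkd2 mRNA in every cell. The groups are therefore noncystic Pkd2 +/+ (mice 19 to 21), noncystic Pkd2 Δ17/Δ17 (mice 22 to 24), cystic Pkd2 +/+ (mice 25 to 27) and cystic Pkd2 Δ17/Δ17 (mice 28 to 30). The labels give no sex, and Xist was above 400 CPM in 6 of the 12 libraries (1, 2, 2 and 1 in that order of groups). Totals ran from 18800307 to 24453033 counts per mouse. Pkd2 itself was at 213 to 233 CPM in cystic Pkd2 +/+ kidneys and at 307 to 336 CPM in cystic Pkd2 Δ17/Δ17 kidneys. In noncystic kidneys it was at 193.8 to 219.0 CPM with Pkd2 +/+ and at 270.5 to 285.8 CPM with Pkd2 Δ17/Δ17. Its RNA was thus higher with the deletion in both disease states. CPM here means counts per 1000000 counts after scaling each library by its TMM factor, and all levels below are CPM unless stated otherwise.

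In the kidney, most P450 enzymes are found in the proximal tubule. Cyp4a enzymes hydroxylate the end of fatty acid chains, which turns arachidonic acid into 20-HETE, while Cyp2c and Cyp2j enzymes turn it into epoxides, and both products act on blood vessels and salt transport. Proximal tubule mitochondria also hold Cyp27b1, which makes the active form of vitamin D, and Cyp24a1, which breaks it down.

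P450 enzymes hold their haem iron through 1 cysteine in a conserved stretch of 10 residues, Phe, any, any, Gly, any, Arg, any, Cys, any and Gly. The stretch was found in 87 of the 96 reading frames. It is shown for the members on which the results turn, because it is the part that all of them share and because it shows how close some copies are. The 30 bases are given 5′ to 3′ on the coding strand, from GENCODE M21 transcripts on GRCm38, with the codon of the cysteine in capitals.
Cyp2j5: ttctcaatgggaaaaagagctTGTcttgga
Cyp2j6: ttctcaatgggaaagcgagctTGCctggga
Cyp2c23: ttctccctcgggaagcgatccTGTgttggc
Cyp4a10: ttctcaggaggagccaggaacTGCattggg
Cyp4a14: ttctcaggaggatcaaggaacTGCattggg
Cyp4a12a: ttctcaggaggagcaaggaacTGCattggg
Cyp27b1: ttcggctttggcaaacggagcTGCatcggg
Cyp24a1: tttggcgtcgggaagaggatgTGCatcggg
In Cyp27b1 the stretch lies in exon 8 of 9 (chr10:127051639-127051668, plus strand), and in Cyp24a1 in exon 10 of 12 (chr2:170485929-170485958, minus strand). In the other 6 it is split by an intron. In Cyp2j5 it covers chr4:96630711-96630720 in exon 8 and chr4:96629627-96629646 in exon 9 of 9, on the minus strand. In Cyp4a10 it covers chr4:115529502-115529518 in exon 11 and chr4:115532531-115532543 in exon 12 of 13, on the plus strand. Cyp4a31 had the same 30 bases as Cyp4a10, Cyp4a14 differed from Cyp4a10 at 2 bases and Cyp4a12a differed from it at 1. Cyp2j5 and Cyp2j6 differed at 4 bases, and Cyp27b1 and Cyp24a1 at 8. Among all members with the stretch, 23 pairs were identical.

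Such copies limit how well reads can be assigned. Of the 100-base windows of Cyp4a10, 12.2% also occurred in Cyp4a31 or Cyp4a32, and of those of Cyp4a31, 7.33% occurred in another gene. For Cyp4a12a and Cyp4a12b, which lie side by side, the shares were 35.8% and 36.2%, and their values are therefore uncertain. No window was shared for Cyp2j5, Cyp2c23, Cyp27b1 or Cyp4a14. Overlap with exons of a neighbouring gene was also found for Cyp2u1 (10.5% of its exon bases), Cyp4x1 (10.7%, with its antisense transcript), Cyp4v3 (8.22%) and Cyp24a1 (2.33%, with Pfdn4). The strand setting of the counting is not given in the sources used here, so reads of overlapping genes may not be separated.

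In noncystic Pkd2 +/+ kidneys the P450 genes took 0.242% to 0.306% of all counts. The summed level of the 97 genes was 2821 ± 376 (SD, n = 3) in noncystic Pkd2 +/+, 3228 ± 266 in noncystic Pkd2 Δ17/Δ17, 1348 ± 216 in cystic Pkd2 +/+ and 1631 ± 37.2 in cystic Pkd2 Δ17/Δ17 kidneys. The noncystic and the cystic mice did not overlap, whichever Pkd2 genotype they had. Per kilobase of exon, Cyp2j5 was the most highly expressed P450 gene in noncystic Pkd2 +/+ kidneys, with 384 CPM per kb. It was followed by Cyp2d26 with 243 CPM per kb, Cyp4a14 with 151.5, Cyp4a10 with 114 and Cyp4a31 with 58.5. Cyp27b1 stood at 36.5 and Cyp2e1 at 27.4 CPM per kb. In cystic Pkd2 +/+ kidneys Cyp2j5 was again the highest, at 152 CPM per kb.

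**Figure D1:**
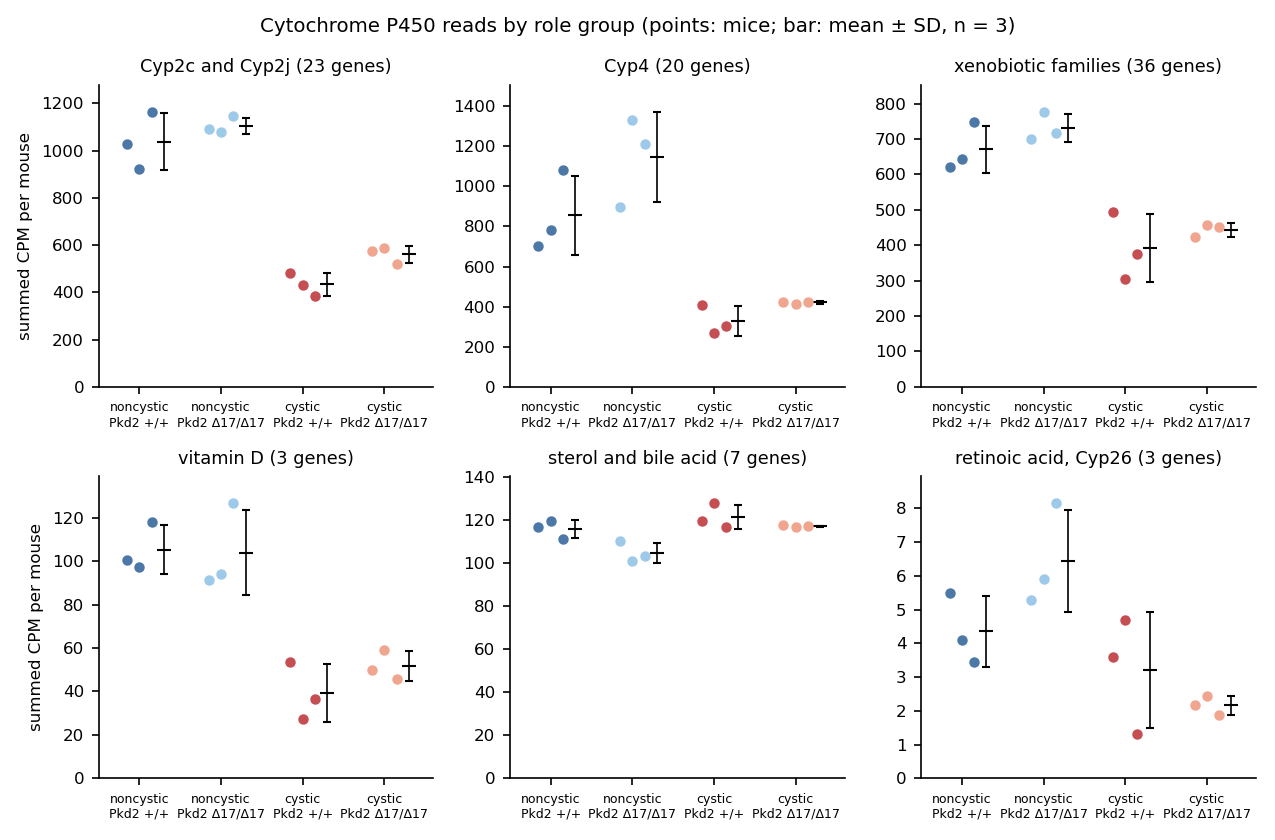
Summed CPM of the P450 genes of 6 role groups in each mouse (points) with the mean ± SD of each group (bar, n = 3); the y axes differ and start at 0. The Cyp2c and Cyp2j, Cyp4, xenobiotic and vitamin D sums were lower in all 6 cystic than in all 6 noncystic mice, whereas the sterol and bile acid sums lay between 101 and 128 CPM in all 12 mice.

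The loss of P450 reads in cystic kidneys was carried by a few abundant genes. The Cyp2c and Cyp2j genes summed to 1038 ± 121 CPM in noncystic and 433 ± 48.2 CPM in cystic Pkd2 +/+ kidneys (SD, n = 3). The Cyp4 genes went from 855 ± 199 to 327 ± 74.3 CPM and the 36 genes of the families that act on foreign compounds, called xenobiotic here, from 671 ± 67.0 to 391 ± 96.1 CPM. The 3 vitamin D genes went from 105 ± 11.1 to 39.2 ± 13.4 CPM. The sterol and bile acid genes were at 116 ± 4.23 and 121 ± 5.59 CPM.

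The comparison of cystic with noncystic kidneys in Pkd2 +/+ mice asked how the cystic disease changed each gene. Of the 71 P450 genes tested, 24 passed the threshold, an adjusted p under 0.05 by the quasi-likelihood test of edgeR, adjusted over all genes tested by the method of Benjamini and Hochberg. This is 33.8%, against 31.1% of all genes tested. They split into 16 that fell (22.5% of those tested, against 14.2% of all genes) and 8 that rose (11.3%, against 16.9%). With library totals in place of TMM factors the split was 13 that fell and 14 that rose, and with limma-trend on library totals it was 13 and 10. Library totals also raised the median of all genes (given in the last section). The split of all genes under these settings was not counted, and the share of all genes called in either direction is not given here. These P450 counts therefore have no background beside them. Of the 71 P450 genes tested, 17 were called with a change of at least 2-fold, as were 10.7% of all genes tested. The median log2 fold change over the 71 genes was 0.17, beside 0.02 over all genes tested. It was also 0.17 when the 6 genes with no noncystic read and the 1 with no cystic read were set to the bound that 3 counts over the group allow. The sign of the median changed without mouse 25, a cystic Pkd2 +/+ mouse. It was then -0.57, but over the 66 genes still tested. The same step moved the median of the Pkd2 Δ17/Δ17 comparison, which does not hold mouse 25, from 0.08 to -0.20. The part of the changed gene set in these shifts was not tested. Over the 59 genes other than 12 that were read mostly in mouse 25, the Pkd2 +/+ median was -0.32, with 27 above 0 and 32 below. Those 12 (described at the end and chosen after seeing the data) all had positive fold changes, so leaving them out could only lower the median. The share of P450 genes called was near that of all genes. The 5 members with the highest levels per kilobase in noncystic Pkd2 +/+ kidneys all fell. That ranking used the group the cystic mice were compared with, so it favours genes that fall. In cystic Pkd2 +/+ kidneys Cyp2e1, which did not pass the threshold, was above Cyp4a31 (34.7 and 23.6 CPM per kb).

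Markers of the proximal tubule moved in the same direction. All 20 of the proximal tubule marker genes examined fell, with a median log2 fold change of -1.30, and their summed level went from 19910 to 24070 CPM in noncystic to 6109 to 8936 CPM in cystic Pkd2 +/+ kidneys. All 7 macrophage markers rose (summed 133 to 135 CPM in noncystic, 313 to 437 CPM in cystic mice), and 4 of 7 collecting duct markers rose. Of the fibroblast and mural markers 3 of 6 rose and 1 fell (1421 to 1571 and 2185 to 3472 CPM), of the endothelial markers 4 of 6 fell (620 to 728 and 443 to 506 CPM), and of the fat markers 4 of 6 fell and 1 rose, with a median log2 fold change of -2.04 (162 to 436 and 41.2 to 115 CPM). The part of these shifts in the P450 changes was not tested. In whole kidneys, fewer cells of a type and less RNA per cell cannot be told apart.

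Of the 23 epoxygenase genes (15 Cyp2c and 8 Cyp2j), 14 were tested, 5 fell and none rose in cystic Pkd2 +/+ kidneys. Cyp2j5, the abundant Cyp2j enzyme of the mouse kidney (chromosome 4, 96628773 to 96664154), was at 892, 796 and 1014 CPM in the noncystic and at 390.0, 361 and 318 CPM in the cystic mice. Every cystic kidney was below every noncystic one. The log2 fold change was -1.34 ± 0.10 (SE; adjusted p = 1.00e-07, edgeR's quasi-likelihood test). Cyp2c23, an arachidonic acid epoxygenase of the kidney (chromosome 19, 44005022 to 44029208), was at 25.03, 22.5 and 32.9 CPM in noncystic and at 10.9, 7.15 and 8.43 CPM in cystic mice. Its groups also did not overlap, and it fell by 1.60 ± 0.16 on the log2 scale (adjusted p = 1.13e-06). Cyp2j11 fell from 38.9 to 53.7 CPM to 18.3 to 26.3 CPM (log2 fold change -1.09 ± 0.13, adjusted p = 8.92e-06).

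The falls of the other Cyp2j genes were smaller. Cyp2j6, a close relative of Cyp2j5, was at 52.6, 54.6 and 52.3 CPM in noncystic and at 33.7, 36.3 and 35.1 CPM in cystic mice, a log2 fold change of -0.60 ± 0.08 (adjusted p = 2.52e-05). The replicates lay close together, so that this smaller difference was well outside their spread. Cyp2j9 changed by -0.57 ± 0.19 (adjusted p = 0.0275). This call depended on single mice, since the adjusted p was 0.0804 without mouse 19, 0.114 without mouse 26 and 0.105 without mouse 27. The other 9 epoxygenase genes that were tested did not pass the threshold.

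The Cyp4 fatty acid hydroxylases moved in both directions. Of 20 genes, 17 were tested, 4 fell and 5 rose. Cyp4a14 (chromosome 4, 115486200 to 115496142) was at 321, 366 and 495.5 CPM in noncystic and at 145, 78.7 and 88.6 CPM in cystic Pkd2 +/+ kidneys. Every noncystic mouse was far above every cystic mouse. Its log2 fold change was -1.92 ± 0.21 (adjusted p = 2.50e-06). Cyp4a10, the other inducible Cyp4a enzyme, was at 183, 217.5 and 318 CPM in noncystic and at 89.0, 67.9 and 76.4 CPM in cystic mice. It fell by 1.62 ± 0.18 on the log2 scale (adjusted p = 3.15e-06), again without overlap. Cyp4a31, which shares some 100-base windows with Cyp4a10 or Cyp4a32, had a log2 fold change of -1.31 ± 0.21 (adjusted p = 1.27e-04). Mouse 21 had the highest level of all 3 genes among the noncystic Pkd2 +/+ mice, and mouse 25 the highest among the cystic ones. Cyp4f13, a member of the leukotriene-hydroxylating Cyp4f subfamily, changed little by comparison (-0.39 ± 0.12, adjusted p = 0.0201), and its adjusted p was 0.0964 without mouse 21 and 0.0947 without mouse 26.

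Cyp4f39, which hydroxylates very long fatty acids for the lipid barrier of the skin, rose more than any other Cyp4 gene with an average log2CPM of at least 1. It was at 0.363, 0.285 and 0.305 CPM in noncystic and at 7.70, 8.62 and 8.19 CPM in cystic Pkd2 +/+ kidneys. The gene was thus close to absent in each noncystic kidney and clearly read in each cystic one (log2 fold change 4.65 ± 0.29, adjusted p = 1.62e-08). Per kilobase of exon it reached 2.86 CPM in cystic Pkd2 +/+ kidneys, far below the 40.0 CPM per kb that Cyp4a14 kept there. Cyp4f16 rose by 0.40 ± 0.11 (adjusted p = 0.00678), from 17.3 to 19.3 CPM to 23.5 to 25.6 CPM. Cyp4v3, an enzyme of fatty acid turnover in the eye and other tissues, rose by 0.69 ± 0.17 (adjusted p = 0.00564). The other 2 Cyp4 genes that rose were near the lower limit of detection. Cyp4x1 was at 0 to 0.153 CPM in noncystic and 0.685 to 1.36 CPM in cystic mice (adjusted p = 0.00392). Cyp4a30b had 0 reads in noncystic and 21 reads in cystic Pkd2 +/+ kidneys, which is at least 5.85-fold higher when 3 counts over the group are taken as the floor (adjusted p = 0.00749, edgeR).

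**Figure D2:**
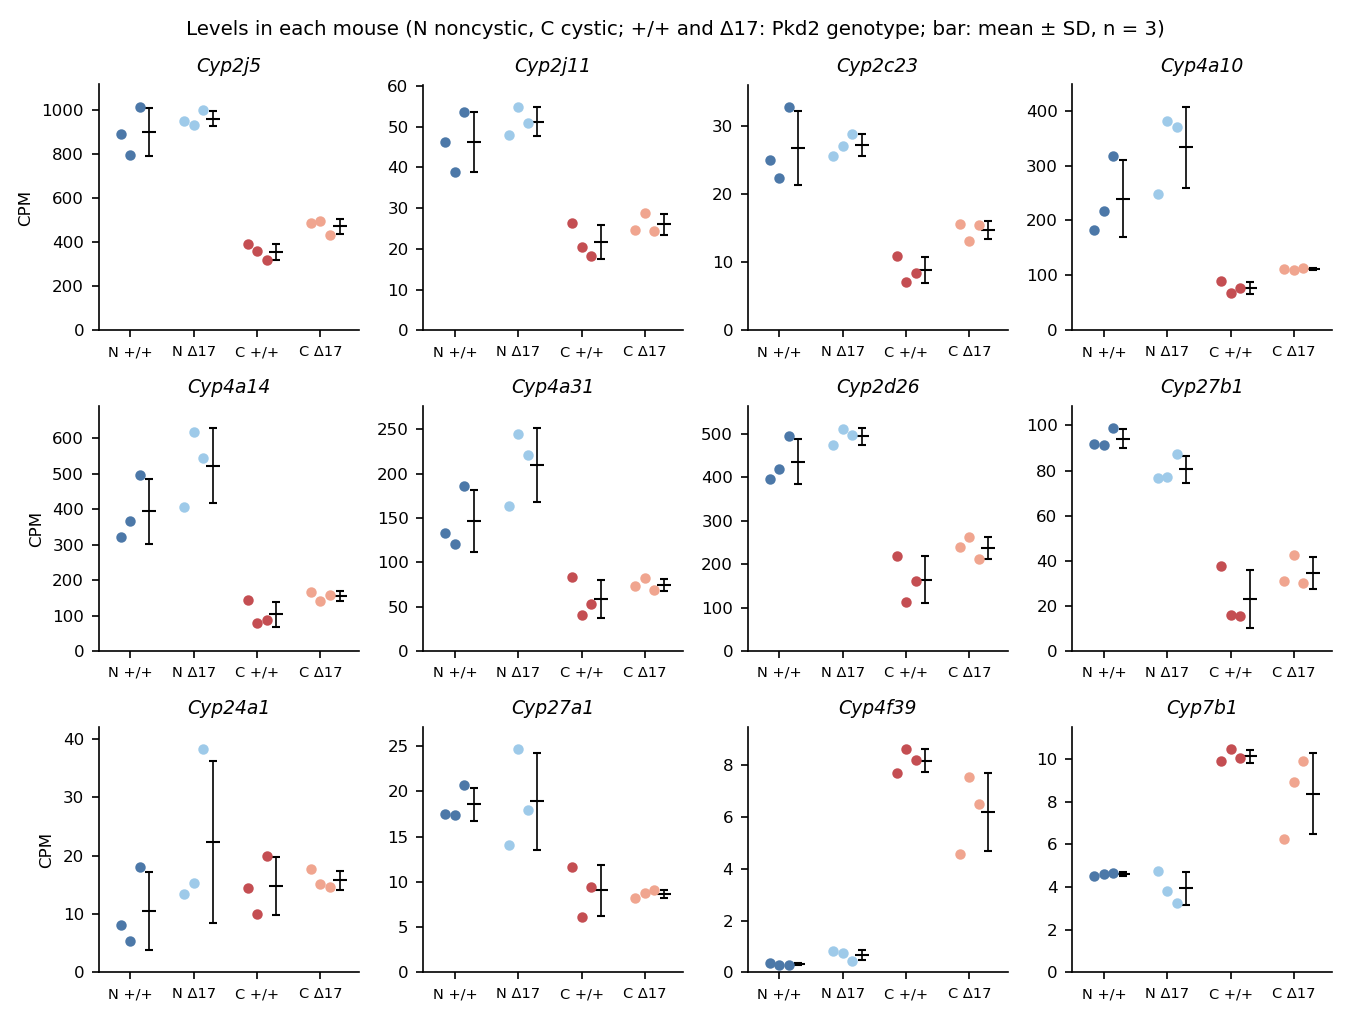
CPM of 12 P450 genes in each mouse (points), with mean ± SD (bar, n = 3); N stands for noncystic, C for cystic, and the y axes differ and start at 0. The Cyp2j, Cyp2c23, Cyp4a, Cyp2d26, Cyp27b1 and Cyp27a1 points were lower in every cystic mouse than in every noncystic mouse, Cyp4f39 and Cyp7b1 were higher in every cystic mouse, and Cyp24a1 overlapped between all groups.

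Among the 36 xenobiotic genes, 24 were tested, 4 fell and 1 rose in cystic Pkd2 +/+ kidneys. Cyp2d26, the most highly expressed of them (chromosome 15, 82790101 to 82794294), was at 396, 418 and 493.5 CPM in noncystic and at 219.5, 113 and 162 CPM in cystic mice. The groups did not overlap, mouse 25 was the highest cystic mouse, and the log2 fold change was -1.40 ± 0.17 (adjusted p = 6.95e-06). Cyp2d22 fell by 1.14 ± 0.18 (adjusted p = 1.09e-04), from 55.4 to 70.5 CPM to 18.9 to 37.1 CPM, and Cyp2d12 by 1.99 ± 0.41 (adjusted p = 0.00127), from 2.34 to 2.65 CPM to 0.441 to 0.800 CPM. The 8 Cyp2d genes together summed to 501 ± 57.7 CPM in noncystic and 194 ± 63.9 CPM in cystic Pkd2 +/+ kidneys. Cyp1a1, the classical target of the aryl hydrocarbon receptor, was low throughout, at 1.61, 0.798 and 1.42 CPM in noncystic and 0.271, 0.343 and 0.282 CPM in cystic mice (log2 fold change -2.08 ± 0.51, adjusted p = 0.00422). Cyp3a13 was the xenobiotic gene that rose, from 0.855 to 1.07 CPM to 1.57 to 3.21 CPM (1.24 ± 0.32, adjusted p = 0.00596).

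Several xenobiotic genes at high levels gave no call. Cyp1b1, a P450 of mural and stromal cells that acts on oestrogens and retinoids, was at 65.4 to 68.0 CPM in noncystic and 68.9 to 81.8 CPM in cystic Pkd2 +/+ kidneys. Its log2 fold change was 0.17 ± 0.10 (adjusted p = 0.228), and with library totals it was 0.33 (adjusted p = 0.0174). Cyp2s1 was at 34.2 to 42.1 and 35.8 to 38.3 CPM (-0.06 ± 0.09, adjusted p = 0.679). Cyp2e1, the ethanol-oxidising P450, was at 53.0, 58.4 and 65.8 CPM in noncystic and 107, 48.7 and 69.1 CPM in cystic mice. Here mouse 25 stood above all others and the remaining cystic mice lay within or near the noncystic range (0.34 ± 0.25, adjusted p = 0.353; -0.00 without mouse 25).

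Of the 3 vitamin D genes, the enzyme that makes the active hormone fell and the enzyme that breaks it down did not pass the threshold. Cyp27b1 (chromosome 10, 127048250 to 127053006) was at 91.9, 91.4 and 98.9 CPM in noncystic and at 37.9, 16.01 and 15.8 CPM in cystic Pkd2 +/+ kidneys. All 3 cystic mice were far below the noncystic ones, with mouse 25 well above mice 26 and 27. The log2 fold change was -2.01 ± 0.24 (adjusted p = 7.21e-06). Cyp24a1 was at 8.10, 5.36 and 18.2 CPM in noncystic and at 14.6, 10.03 and 20.01 CPM in cystic mice. The groups overlapped (0.49 ± 0.40, adjusted p = 0.403), and without mouse 21, the noncystic Pkd2 +/+ mouse with the most Cyp24a1, the log2 fold change was 1.12 (adjusted p = 0.0434). Cyp2r1, which adds the first hydroxyl group to vitamin D, was at 0.467 to 0.966 and 0.942 to 1.32 CPM (0.73 ± 0.35, adjusted p = 0.135). Around these enzymes, Kl, the co-receptor for FGF23, fell by 1.03 and Pth1r, the receptor for parathyroid hormone, fell by 1.15 on the log2 scale, and the vitamin D receptor Vdr fell by 0.82.

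The sterol and bile acid genes included both directions. Cyp27a1, the mitochondrial sterol 27-hydroxylase, was at 17.6, 17.5 and 20.7 CPM in noncystic and at 11.7, 6.12 and 9.42 CPM in cystic Pkd2 +/+ kidneys and fell by 1.03 ± 0.21 (adjusted p = 0.00107). Cyp7b1, which hydroxylates oxysterols and steroids, was at 4.52, 4.62 and 4.68 CPM in noncystic and at 9.91, 10.5 and 10.03 CPM in cystic mice. The cystic mice lay close together and far above the noncystic ones (1.14 ± 0.18, adjusted p = 1.38e-04). Cyp39a1, another oxysterol hydroxylase, rose by 0.44 ± 0.10 (adjusted p = 0.00211), from 18.9 to 20.8 CPM to 24.5 to 28.2 CPM. Cyp51, the lanosterol demethylase of cholesterol synthesis, was at 62.0 to 74.4 CPM in noncystic and 64.4 to 81.7 CPM in cystic mice (0.06 ± 0.11, adjusted p = 0.745). Cyp46a1 and Cyp8b1 did not pass the threshold, and Cyp7a1, the rate-limiting enzyme of bile acid synthesis in the liver, had 14 reads, all in mouse 25.

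The retinoic acid hydroxylases of the Cyp26 family did not pass the threshold in Pkd2 +/+ mice. Cyp26b1 was at 5.19, 3.71 and 3.001 CPM in noncystic and at 2.25, 4.01 and 0.942 CPM in cystic kidneys (log2 fold change -0.73 ± 0.39, adjusted p = 0.177). Mouse 26 lay within the noncystic range, and without it the log2 fold change was -1.29 (adjusted p = 0.0156). Of the genes of retinoic acid synthesis and transport, 3 of 10 rose and 2 fell in the same comparison. Aldh1a1, which makes retinoic acid, rose by 2.39, whereas the retinaldehyde reductase Dhrs3 fell by 0.79 and Crabp1 fell by 1.78. Among the remaining members, Cyp2u1, a P450 of fatty acid hydroxylation, was at 9.502, 7.47 and 5.75 CPM in noncystic and at 5.65, 2.94 and 4.90 CPM in cystic mice (-0.75 ± 0.23, adjusted p = 0.0215). Its groups came close to overlapping, and the adjusted p was 0.128 without mouse 19 and 0.0889 without mouse 26. Cyp17a1, of steroid hormone synthesis, stayed at or below 0.285 CPM in all mice, and Cyp19a1 had no read.

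Microsomal P450 enzymes receive electrons from P450 reductase and mitochondrial ones from ferredoxin, and all need haem. Of 7 electron donor genes, 3 fell and 1 rose in cystic Pkd2 +/+ kidneys. Por, the reductase, fell by 0.83 on the log2 scale, from 240 ± 26.03 to 135 ± 7.61 CPM (SD, n = 3). Cyb5a fell by 1.02, Fdx1 fell by 0.82 and Cyb5r3 rose by 0.54. Of 10 genes of haem synthesis and breakdown, 4 fell and 1 rose. Alas1, the first enzyme of haem synthesis, fell by 0.66 and the haem oxygenase Hmox1 rose by 0.91. Of 7 genes that act on P450 products or make other eicosanoids, Ephx2, the soluble epoxide hydrolase, fell by 1.13 and Ptgs1 rose by 0.30.

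Of 13 nuclear receptors and partners that are known to control P450 genes, 7 fell and 3 rose. Ppara, the receptor behind Cyp4a induction, fell by 0.84 (adjusted p = 0.00642) and Hnf4a, a regulator of proximal tubule and liver genes, also fell (adjusted p = 1.93e-05, edgeR). Nr1i2, known as PXR, fell by 0.97. Nr1i3, known as CAR, went from 0.418 ± 0.191 to 0.0449 ± 0.00545 CPM (SD, n = 3), which is near the lower limit of detection. Ahr, Rara and Rarg rose by 0.65, 0.55 and 0.54. Proximal tubule markers moved with the fallen genes of these lists, and their part was not tested.

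The same comparison in Pkd2 Δ17/Δ17 mice used other animals. There, 23 of 71 P450 genes passed the threshold (32.4%, against 23% of all genes tested), 18 that fell (25.4%, against 10.2%) and 5 that rose (7.04%, against 12.8%). With library totals the split was 16 that fell and 10 that rose, and with limma-trend it was 16 and 11, and here too the split of all genes was not counted. The median log2 fold change was 0.08 over the 71 genes (0.00 with the 8 genes that had no noncystic read set to the same bound) and -0.00 over all genes. Without mice 25 and 30, the latter a cystic Pkd2 Δ17/Δ17 mouse (a step also chosen after seeing the data), it was -0.47 over the 60 genes still tested. A change of at least 2-fold was called for 15 of the 71 genes, and for 6.15% of all genes tested. Of the proximal tubule markers, 18 of 20 fell, with summed levels of 22940 to 24850 CPM in noncystic and 8419 to 11250 CPM in cystic mice.

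Of the genes that fell, 15 were called with both Pkd2 genotypes, which is 93.8% of the Pkd2 +/+ list and 83.3% of the Pkd2 Δ17/Δ17 list. They were Cyp2j5, Cyp2j6, Cyp2j9, Cyp2j11 and Cyp2c23 of the epoxygenases, Cyp4a10, Cyp4a14, Cyp4a31 and Cyp4f13 of the Cyp4 genes, Cyp2d12, Cyp2d22, Cyp2d26 and Cyp1a1 of the xenobiotic genes, Cyp27b1 and Cyp27a1. Of the genes that rose, 5 were shared (62.5% of the Pkd2 +/+ list and 100% of the other), namely Cyp4f39, Cyp4f16, Cyp3a13, Cyp39a1 and Cyp7b1. No P450 gene was called in opposite directions. The matching shares over all genes tested were not counted, so these overlaps are not shown to be particular to P450 genes.

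**Figure D3:**
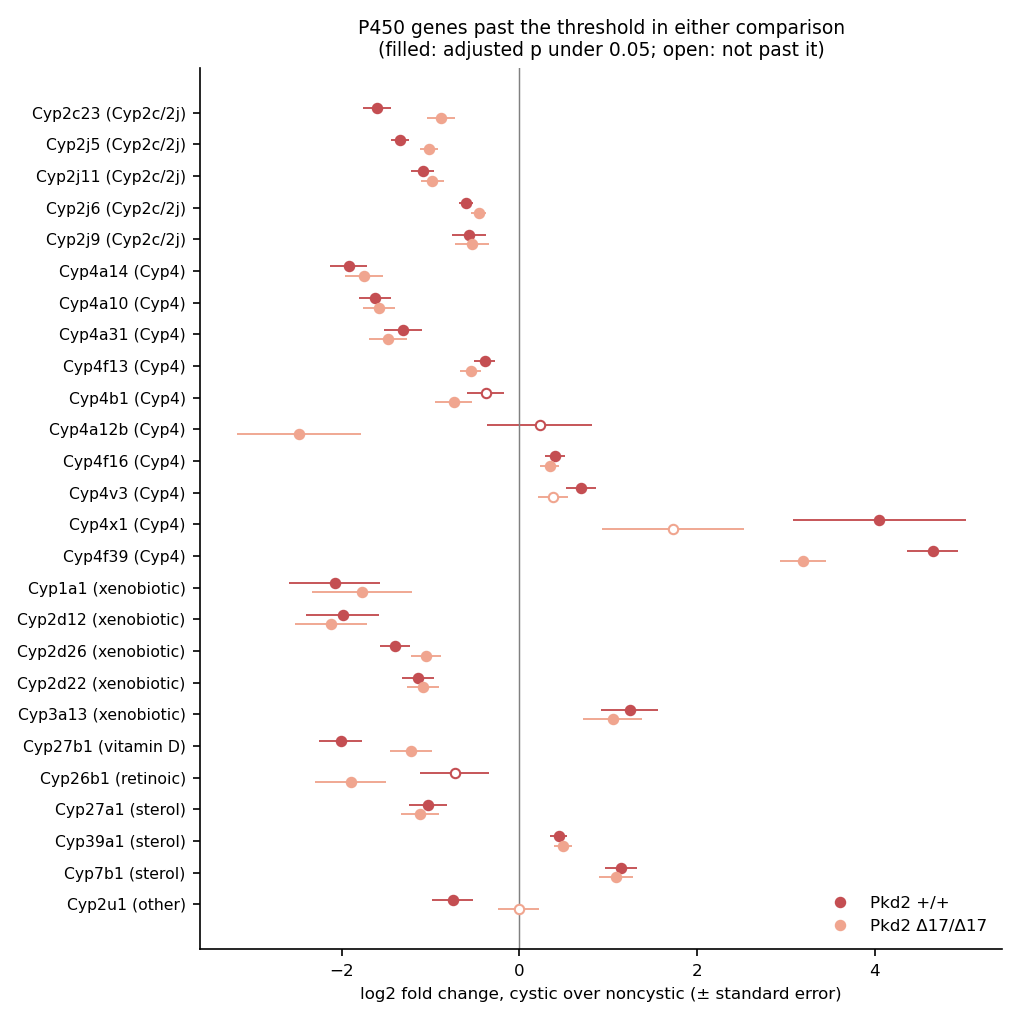
Log2 fold changes of cystic over noncystic kidneys (points, bars ± SE) in Pkd2 +/+ (dark) and Pkd2 Δ17/Δ17 mice (light) for the P450 genes past the threshold in either comparison, by role group; Cyp4a30b, at 0 reads in noncystic Pkd2 +/+ kidneys, is not drawn. Filled points passed an adjusted p of 0.05. Cyp4a14, Cyp4a10 and Cyp4a31 lay between -1.92 and -1.31 with both genotypes, Cyp4f39 lay at 4.65 and 3.19, and Cyp4a12b was called in Pkd2 Δ17/Δ17 mice only.

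In Pkd2 Δ17/Δ17 mice Cyp2j5 was at 948, 934 and 1001 CPM in noncystic and at 487, 496 and 434 CPM in cystic kidneys (log2 fold change -1.02 ± 0.10, adjusted p = 3.29e-06). Cyp4a14 was at 407, 616 and 544 CPM and at 166, 141 and 160.0 CPM (-1.75 ± 0.21, adjusted p = 1.41e-05). Cyp27b1 was at 76.8, 77.4 and 87.4 CPM and at 30.96, 42.8 and 30.2 CPM (-1.22 ± 0.24, adjusted p = 0.00108). In each of these genes the highest cystic mouse was below the lowest noncystic mouse. Cyp4a10 fell by 1.58 ± 0.18, Cyp2d26 by 1.05 ± 0.17, Cyp2c23 by 0.88 ± 0.16 and Cyp27a1 by 1.12 ± 0.21 on the log2 scale. Cyp4f39 was at 0.817, 0.764 and 0.440 CPM in noncystic and at 4.57, 7.53 and 6.49 CPM in cystic mice, a rise of 3.19 ± 0.26 (adjusted p = 5.55e-07). Cyp7b1 rose by 1.09 ± 0.19 and was lowest, among cystic mice, in mouse 28 at 6.25 CPM.

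Calls made with 1 genotype were few. Cyp26b1 fell in Pkd2 Δ17/Δ17 mice, from 4.74, 5.46 and 7.98 CPM to 1.83, 1.96 and 1.06 CPM, without overlap (-1.90 ± 0.40, adjusted p = 0.00190). Cyp4a12b had 0.440 to 1.14 CPM in noncystic and 0 to 0.192 CPM in cystic mice (-2.48 ± 0.70, adjusted p = 0.0156), but it shares 36.2% of its windows with Cyp4a12a, and the adjusted p was 0.0776 without mouse 22 and 0.0524 without mouse 29. Cyp4b1 changed by -0.74 ± 0.21 (adjusted p = 0.0173), with 0.121 without mouse 23 and 0.0770 without mouse 29. In the other direction, Cyp2u1 had a log2 fold change of -0.01 ± 0.23 in Pkd2 Δ17/Δ17 mice, Cyp4v3 0.38 ± 0.17 and Cyp4x1 1.73 ± 0.80, none past the threshold. Several shared calls were near the threshold in Pkd2 Δ17/Δ17 mice. The adjusted p of Cyp2j9 was 0.0499 and rose above 0.05 without any of mice 19, 21, 23, 24 and 27 to 30. Cyp4f16 (0.0274), Cyp1a1 (0.0304) and Cyp3a13 (0.0271) rose to at most 0.154, 0.128 and 0.122. Cyp4f16 did so without mouse 23, 24, 29 or 30, Cyp1a1 without mouse 22, 24 or 30, and Cyp3a13 without mouse 23, 24, 28 or 29.

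Whether the change with cystic disease differed between the Pkd2 genotypes was tested as an interaction. No P450 gene passed the threshold in edgeR's quasi-likelihood test, nor with DESeq2 or limma-trend, and 9 of 71 had an unadjusted p under 0.05, as did 8.33% of all genes. Of all genes 0.0122% were called. The lowest adjusted p was that of Cyp4f39 (difference of the log2 fold changes -1.46 ± 0.42, adjusted p = 0.308), followed by Cyp2c23 (0.71 ± 0.22, adjusted p = 0.360). For Cyp27b1 the difference was 0.79 ± 0.33 (adjusted p = 0.537), and without mouse 25 it was 1.35 (adjusted p = 0.00896). For Cyp26b1 it was -1.18 ± 0.55 and for Cyp2u1 0.74 ± 0.33. The genes called with 1 genotype only were thus not shown to differ between the genotypes.

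The effect of removing the miR-17 motif of Pkd2 was compared within the cystic kidneys. Of 71 P450 genes, 2 rose and none fell (2.82%, against 2.23% of all genes tested, of which 1.19% rose and 1.04% fell), and 9 had an unadjusted p under 0.05, as did 14.3% of all genes. The cystic groups did not overlap for 10 genes, 5 higher and 5 lower with the deletion, beside 8.79% higher and 10.2% lower of all genes. Both called genes were epoxygenases. Cyp2c23 was at 10.9, 7.15 and 8.43 CPM in cystic Pkd2 +/+ and at 15.6, 13.2 and 15.5 CPM in cystic Pkd2 Δ17/Δ17 mice (log2 fold change 0.73 ± 0.16, adjusted p = 0.0251). Cyp2j5 was at 390.0, 361 and 318 CPM and at 487, 496 and 434 CPM (0.41 ± 0.10, adjusted p = 0.0495). Neither gene overlapped between the groups, and both remained below every noncystic mouse.

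These 2 calls were not firm. The adjusted p of Cyp2c23 was 0.0803 without mouse 26, 0.109 without mouse 27, 0.126 without mouse 28 and 0.0617 without mouse 29, and that of Cyp2j5 lay between 0.0573 and 0.228 without any of mice 19, 22 to 24 and 26 to 29. Mouse 25 had the highest level of Cyp27b1, Cyp2d26, Cyp4a10, Cyp4a14 and Cyp4a31 among the cystic Pkd2 +/+ mice, and with it these genes did not pass. Cyp27b1 was higher by 0.57 ± 0.24 (adjusted p = 0.284), Cyp2d26 by 0.53 ± 0.17 (adjusted p = 0.120), Cyp4a14 by 0.58 ± 0.20 (adjusted p = 0.172), Cyp4a10 by 0.52 ± 0.18 (adjusted p = 0.159) and Cyp4a31 by 0.34 ± 0.21 (adjusted p = 0.508). Without mouse 25, 6 genes rose, among them Cyp27b1 by 1.12 (adjusted p = 3.40e-04), Cyp2d26 by 0.79 (adjusted p = 0.00406), Cyp4a14 by 0.90 (adjusted p = 0.00696) and Cyp4a31 by 0.67 (adjusted p = 0.0438). The share of all genes called in that fit is not given here, so the larger count is not shown to be particular to P450 genes. Of the proximal tubule markers, 5 of 20 rose with the deletion in all mice, among them Lrp2 by 0.64 (adjusted p = 0.0308), and 4 of 7 macrophage markers fell. The part of these shifts was not tested.

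**Figure D4:**
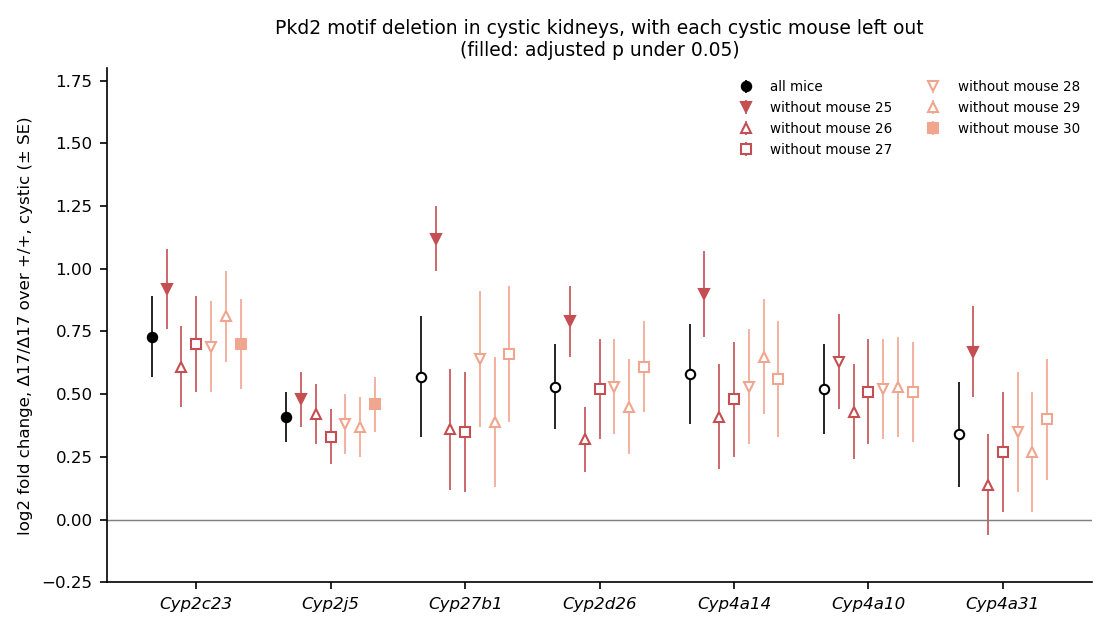
Log2 fold change of cystic Pkd2 Δ17/Δ17 over cystic Pkd2 +/+ kidneys (± SE) for 7 P450 genes, with all mice (black) and with each cystic mouse left out; filled symbols passed an adjusted p of 0.05. With all mice Cyp2c23 (0.73) and Cyp2j5 (0.41) passed, and without mouse 25 Cyp27b1 (1.12), Cyp2d26 (0.79), Cyp4a14 (0.90) and Cyp4a31 (0.67) passed as well.

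In noncystic kidneys the deletion gave no call among the P450 genes by edgeR, DESeq2 or limma-trend, where edgeR called 0.00406% of all genes. With no cutoff on average log2CPM, edgeR called 4 (Cyp24a1, Cyp4a10, Cyp4a14 and Cyp4a31), and the share of all genes called at that setting is not given here. With the cutoff, 5 of 71 had an unadjusted p under 0.05, as did 6.31% of all genes. Those 5 were Cyp4a10 (log2 fold change 0.48 ± 0.17), Cyp4a31 (0.51 ± 0.21), Cyp4f39 (1.07 ± 0.36), Cyp24a1 (1.08 ± 0.40) and Cyp51 (-0.28 ± 0.11), each with an adjusted p of 0.771. For Cyp24a1 the noncystic Pkd2 Δ17/Δ17 mice were at 13.5, 15.4 and 38.3 CPM, with mouse 24 far above the others. For Cyp2j5 and Cyp2c23 the differences were 0.09 ± 0.10 and 0.02 ± 0.15.

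A separate set of P450 genes was read almost only in 1 kidney. For 12 of the 71 genes tested, mouse 25 (cystic Pkd2 +/+) held 70.4% to 87.7% of the CPM summed over all 12 mice. They were Cyp2c29, Cyp2c37, Cyp2c50, Cyp2c68 and Cyp2c70 of the epoxygenase group and Cyp1a2, Cyp2a12, Cyp2a22, Cyp2d10, Cyp3a11, Cyp3a16 and Cyp3a25 of the xenobiotic group, many of them known as liver enzymes. Their levels in mouse 25 were 0.697 to 5.15 CPM, mouse 30 was second for 10 of the 12, and no other mouse exceeded 0.260 CPM. Of the 18 genes that had reads but were not tested, 9 also had most of their CPM in mouse 25, on 1 to 21 reads in all, and 5 of them (Cyp2c39, Cyp2c54, Cyp3a44, Cyp3a59 and Cyp7a1) had reads in no other mouse. Alb, the gene for albumin, was at 355 CPM in mouse 25, 91.2 CPM in mouse 30, 16.4 CPM in mouse 19 and 0.220 to 1.61 CPM in the other 9. The summed level of 8 liver marker genes was 594 CPM in mouse 25, 204 CPM in mouse 30 and 30.3 to 154 CPM elsewhere. In noncystic kidneys most of this sum was Ttr, with group means of 117 (Pkd2 +/+) and 113 CPM (Pkd2 Δ17/Δ17). The Ttr means in cystic kidneys were 45.7 and 81.6 CPM in the same order.

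**Figure D5:**
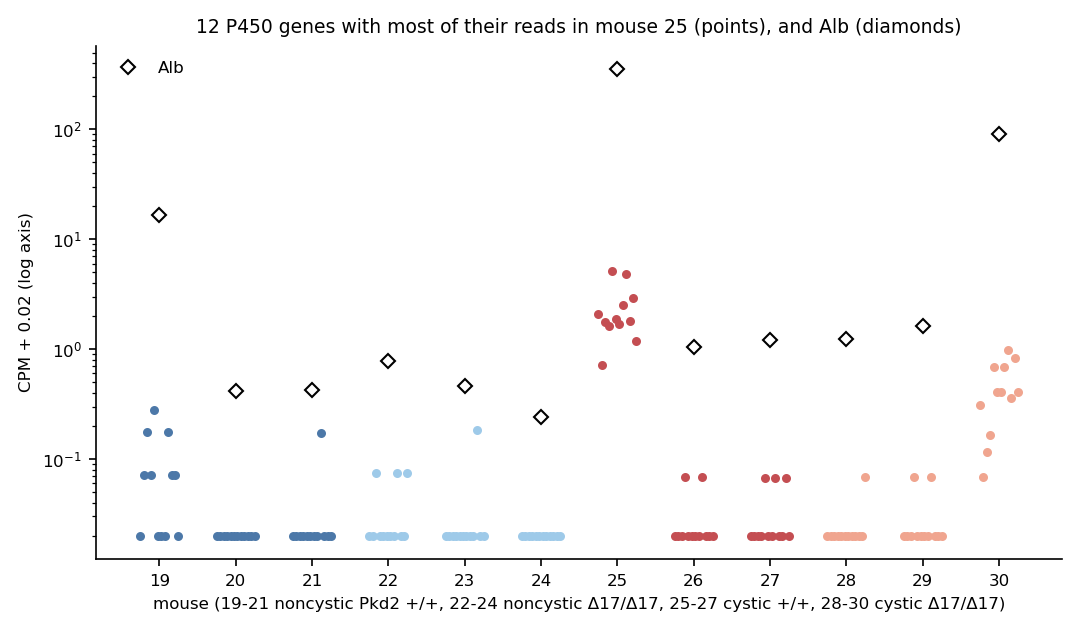
CPM (with 0.02 added, log axis) of the 12 P450 genes with most of their reads in mouse 25 (points, 1 per gene) and of Alb (diamonds) in each of the 12 mice; the lowest row of points stands for no read. Mouse 25 holds the highest points, at 0.697 to 5.15 CPM, mouse 30 the next, and Alb was highest in the same 2 mice.

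None of the 12 passed the threshold in Pkd2 +/+ mice, with fitted log2 fold changes of 3.36 to 7.15 and adjusted p values of 0.0510 to 0.153 in edgeR's test, while 11 had an unadjusted p under 0.05. Of the 12, 4 had no read in any noncystic mouse, and Cyp2c68 had none in noncystic Pkd2 +/+ mice. The size of the fitted fold changes of these genes depends on the prior count. Without mouse 26 or mouse 27, 11 of the 12 became calls, and the count of P450 calls went from 24 to 34 and 35. Without mouse 25, 27 genes were called and none of the 24 was lost, while 6 of the 12 were still tested and none of these was called. The shares of all genes called in these fits are not given here. Without both mouse 25 and mouse 30, all 24 calls in Pkd2 +/+ mice remained, together with Cyp20a1, Cyp2c69 and Cyp2f2. In Pkd2 Δ17/Δ17 mice the same step kept 20 of 23 calls, lost Cyp1a1, Cyp2j9 and Cyp4f16 and added Cyp2e1.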

How the data were processed

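Total RNA of whole kidneys from 12 mice, 3 per group, was sequenced as paired reads of 150 bp. The authors trimmed reads with Trim Galore 0.6.3, aligned them to GRCm38 with STAR 2.5.3a and counted them per gene with Ensembl 94 gene models; the deposited values are raw whole-number counts, which leave out reads that map to several places. Rows without a gene name (343, holding 0.0225% of counts) were kept in the totals and, where they passed the cutoff, in the tests. Counts were tested with edgeR 4.0.16 (R 4.3.3) on TMM factors (0.933 to 0.972 in noncystic, 1.04 to 1.08 in cystic libraries), with 1 mean per group for all 12 mice, a cutoff at an average log2CPM of -3 on low genes, the quasi-likelihood test and Benjamini-Hochberg adjustment over 24642 genes. The authors' methods describe limma-trend on library totals, which was run as an alternative (limma 3.58.1), as was DESeq2 1.42.0. In the main fit, p-values of edgeR's quasi-likelihood test rest on the spread between mice within all groups together (8 residual degrees of freedom). A comparison therefore also uses the spread of the groups outside it. No pair of libraries agreed within sampling noise (chi-square per degree of freedom 8.88 to 24.3).

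The P450 genes, role groups and marker lists were chosen with earlier results of these data known. Genes given by mouse were a list chosen for kidney function, the largest changes of each role group in Pkd2 +/+ mice at an average log2CPM of at least 1, and all calls for the motif deletion (26 genes); others were named after their values were seen. Coordinates and sequences are from GENCODE M21, in which 54495 of 54532 gene IDs were found. The step was tested on simulated data before use.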

Additional observations from a re-analysis of the deposited data

Results flagged for a closer look

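The 4 adrenal P450 genes that were left out of the members (Cyp11a1, Cyp11b1, Cyp11b2 and Cyp21a1) were read in 2 cystic kidneys far above the noncystic level. They summed to 227 CPM in mouse 30 (cystic Pkd2 Δ17/Δ17) and to 27.5 CPM in mouse 27 (cystic Pkd2 +/+), beside 0.114 to 0.763 CPM in the 6 noncystic mice and 0.288 to 0.880 CPM in the other 4 cystic mice. The summed level of 8 adrenal gland marker genes, which include these 4, was 487 CPM in mouse 30, 68.6 CPM in mouse 27 and 5.73 to 11.7 CPM in the other 10 mice. Cyp17a1, a member of steroid hormone synthesis, had 0 reads in mouse 30 and 0.0471 CPM in mouse 27.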

How the results depend on the processing

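Mouse numbers are not shared between groups. No paired analysis was possible because each mouse number from 19 to 30 occurs in 1 group only. The median of all genes was 0.18 in Pkd2 +/+ and 0.15 in Pkd2 Δ17/Δ17 mice with library totals, beside 0.02 and -0.00 with TMM factors. With no cutoff on average log2CPM the P450 calls were 41 for cystic disease in Pkd2 +/+ mice, 15 for the deletion in cystic kidneys, 4 for the deletion in noncystic kidneys and 4 for the interaction, beside 24, 2, 0 and 0. The share of all genes called at this setting is not given here. These larger counts are therefore not shown to be particular to P450 genes. Requiring a 2-fold change left 15 of 23 calls in Pkd2 Δ17/Δ17 mice and 0 of 2 for the deletion in cystic kidneys. For that deletion, DESeq2 size factors gave 1 call, Xist as a covariate 1, the compared groups alone 1, and leaving out mice 25 and 30 (chosen after seeing the data) gave 6, as well as 1 for the interaction. The compared groups alone called Cyp4a10 (adjusted p = 0.0386). Leaving out 1 mouse at a time gave 22 to 35 calls in Pkd2 +/+ mice, 18 to 24 in Pkd2 Δ17/Δ17 mice, 0 to 6 for the deletion in cystic kidneys, 0 in noncystic kidneys and 0 to 1 for the interaction. For these alternative fits, too, the share of all genes called is not given here. The direction turned only for genes that were not called. Cyp4a12a (0.13) had -0.08 with Xist as a covariate, -0.44 without mouse 21 (highest value 0.96, without mouse 19) and -0.13 without mouse 25 or without mice 25 and 30. Cyp51 (0.06) had -0.03 without mouse 21 and -0.04 without mouse 26. Cyp2e1 (0.34) had -0.00 without mouse 25 or without mice 25 and 30 (highest value 0.57, without mouse 26). Cyp2s1 (-0.06) had 0.10 with library totals by edgeR or limma-trend and 0.00 with Xist as a covariate. Cyp2c23 for the deletion in noncystic kidneys (0.02) had -0.02 without mouse 19 or 24 and -0.10 without mouse 20 (highest value 0.19, without mouse 21). The cause of these changes was not tested. Counting depth limits genes near or under 1 CPM, where a single mouse holds few reads.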
